A study of Mus musculus with 8 samples.

Results

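The genes followed here are a set of microglia and complement genes: C1qa, C1qb, C1qc, Tyrobp, Trem2, Csf1r, P2ry12, Cx3cr1 and Tmem119. These are 9 of the 31053 genes in the count matrices and were chosen by symbol, each symbol matching 1 gene. Microglia are resident macrophages of the brain. They make most of the C1q of the brain, a protein of A, B and C chains that starts the classical complement pathway and tags synapses and debris for removal. Their upkeep depends on the growth factor receptor CSF1R, they sense lipids and debris through the receptor TREM2 and its signaling adaptor TYROBP, and in the resting state they carry the ADP receptor P2RY12, the receptor for the neuronal chemokine CX3CL1 (CX3CR1) and the surface protein TMEM119.

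The cells came from the prefrontal cortex (PFC) and the striatum of male C57BL/6N mice, either wild-type littermates (WT) or heterozygous for Setd1a (Setd1a+/-), a gene for a histone H3K4 methyltransferase in which CRISPR-Cas9 had left a frameshift in every cell of the animal. The labels call the striatal tissue NAc and give an age of 8 to 10 weeks, while the study describes it as dorsal and ventral striatum and gives another age. Each of the 8 libraries, 2 per tissue and genotype, pooled the dissociated tissue of 2 mice, so that the spread between libraries is not that between single animals. The study's own cell annotation was used as deposited, and its limits were 800 genes per cell and a mitochondrial share of 10%.

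The annotation named 753 of 23687 cells microglia, 482 in the PFC and 271 in the striatum. PFC microglia were 265 and 80 cells for WT replicates 1 and 2, with 46 and 91 for Setd1a+/-, and striatal microglia were 83 and 76, with 88 and 24. The libraries held 15154268 to 26277553 unique molecular identifiers (UMIs, each a counted RNA molecule), and the median microglia cell held 1980.0 to 2748.5. Setd1a was at 8.45 and 11.2 counts per 1000000 UMIs (CPM) over all annotated cells of the WT PFC libraries against 5.59 and 9.33 in Setd1a+/-, and at 13.4 and 15.2 against 9.16 and 12.5 in the striatum. It was lower in Setd1a+/- in all 4 pairs of libraries with the same tissue and replicate number, although the PFC genotypes overlapped when the pairs were ignored, and microglia held 0 to 3 Setd1a UMIs per library, too few for a check within them. Cell barcodes recurred between libraries for 311 of the annotated cells' barcodes, 20 of them on microglia. The smallest set, striatal Setd1a+/- replicate 2, stood apart: its 24 cells had a median of 1419 detected genes against 884 to 1104 in the other libraries, and 75% of them held at least 3 UMIs of 10 neuron markers against 3.77% to 53.9% elsewhere.

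The 3 C1q genes lie side by side on the minus strand of chromosome 4 (GRCm38, GENCODE vM21), C1qb at 136880129 to 136886187, C1qc at 136889804 to 136893065 and C1qa at 136895917 to 136898803, with 3616 bases between the first pair and 2851 between the second. Tyrobp is on chromosome 7, Trem2 on 17, Csf1r on 18, P2ry12 on 3, Cx3cr1 on 9 and Tmem119 on 5. Annotated exons or introns of other genes overlap Csf1r, P2ry12 and Cx3cr1, for P2ry12 only on the opposite strand. Whether reads in shared sequence were assigned to the right gene was not tested. To show what lies in front of genes that were all higher in microglia than in the other annotated types, the 250 bases before the RefSeq start (GRCm38.p6) are printed for a member of each functional group whose window held no annotated exon, namely C1qb (complement, chr4:136886201-136886450, minus strand), Trem2 (signaling receptor, chr17:48346151-48346400, plus strand) and P2ry12 (purine receptor, chr3:59262986-59263235, minus strand). Capitals mark matches on either strand to the letters GAGGAA (a PU-box, bound by the myeloid factor SPI1), TGTGGT (RUNX), TTGCNNCAA (CEBP) and TGANTCA (AP-1), or to the motif of the IRF factors, and no 2 of the marked matches overlap.
C1qb: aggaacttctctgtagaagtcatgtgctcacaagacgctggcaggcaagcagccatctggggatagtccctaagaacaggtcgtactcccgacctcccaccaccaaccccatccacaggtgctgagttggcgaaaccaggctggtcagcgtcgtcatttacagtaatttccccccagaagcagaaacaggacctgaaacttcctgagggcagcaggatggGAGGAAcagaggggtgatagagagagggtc
Trem2: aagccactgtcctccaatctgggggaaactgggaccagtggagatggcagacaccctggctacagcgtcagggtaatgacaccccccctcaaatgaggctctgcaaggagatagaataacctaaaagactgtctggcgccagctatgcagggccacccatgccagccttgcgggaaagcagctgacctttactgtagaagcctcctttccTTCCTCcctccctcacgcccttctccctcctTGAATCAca
P2ry12: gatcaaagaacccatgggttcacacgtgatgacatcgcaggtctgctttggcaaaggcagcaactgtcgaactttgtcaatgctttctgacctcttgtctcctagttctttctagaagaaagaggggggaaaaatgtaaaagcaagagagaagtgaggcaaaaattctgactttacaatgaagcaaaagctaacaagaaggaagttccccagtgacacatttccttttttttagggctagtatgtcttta

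The PU-box letters lay 25 to 30 bases before the start of C1qb and, on the opposite strand, 35 to 40 bases before that of Trem2, where an AP-1 match followed at 3 to 9 bases. None of the 5 motifs was in the P2ry12 window. RefSeq windows were matched for 5 of the 9 members, and 3 of these 5 held the PU-box letters, against 23.3% of 32851 promoter windows of the same length, 2 held RUNX letters, 1 held AP-1 letters and none held CEBP or IRF. Of these, both RUNX matches and 1 of the 3 PU-box matches lay in the windows of C1qc and Cx3cr1, which overlap annotated exons by 151 and 250 bases. The shares of all windows with a match were 14.0% for RUNX, 6.75% for AP-1, 2.98% for IRF and 1.74% for CEBP. The matches are descriptions of these letters, and no binding was measured here.

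C1qa and C1qb, of the A and B chains of C1q, differed between libraries within a tissue, and in the striatum mainly in the 24 cells of Setd1a+/- replicate 2. C1qa was at 4432 and 7691 CPM in WT and 2218 and 10336 in Setd1a+/- PFC microglia (replicates 1 and 2), and at 7154.5 and 4897 in WT and 7475 and 2196 in Setd1a+/- striatal microglia. C1qb was at 5404 and 8053, and 2836 and 10404, in the PFC and at 6411 and 5854.5, and 7069 and 3048, in the striatum. C1qc, in the same order, was at 7264 and 5338, and 4791 and 7609, in the PFC and at 4723.5 and 4179, and 4878 and 2331, in the striatum. The Setd1a+/- pair gave both the lowest and the highest PFC value of C1qa and C1qb, so the genotypes overlapped in both tissues. Counts of a gene depend on its capture as well as on its RNA, so levels are compared here within a gene, not between genes.

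Tyrobp, the adaptor that passes on the TREM2 signal, was at 5054.5 and 5235.5 CPM in WT and 3292 and 6497 in Setd1a+/- PFC microglia, and at 3632 and 2998, and 4092 and 1778, in the striatum. Trem2 was the steadiest member in the PFC, with 2739 and 2266 in WT and 2329 and 2741 in Setd1a+/-, and was at 1780.2 and 1400.3, and 1914.5 and 1061, in the striatum. Csf1r, the receptor for CSF1 and IL-34, was at 1755 and 1125, and 1377 and 1746, in the PFC and at 966 and 842, and 973 and 717, in the striatum. For Trem2 and Csf1r every striatal library was below every PFC library.

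The markers of the resting state showed the same order of tissues for P2ry12 and Cx3cr1. P2ry12 was at 3314 and 1152 CPM in WT and 2390.2 and 2014.5 in Setd1a+/- PFC microglia, and at 940.5 and 782, and 964 and 463, in the striatum. Cx3cr1 was at 2106 and 1352, and 1549.6 and 1624, in the PFC and at 940.5 and 747, and 1156 and 837, in the striatum. Tmem119 overlapped between the tissues, with 2002 and 1217, and 1357 and 2156, in the PFC and 1331 and 975, and 1334 and 418, in the striatum. The plot of the members by library shows these values.

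**Figure D1:**
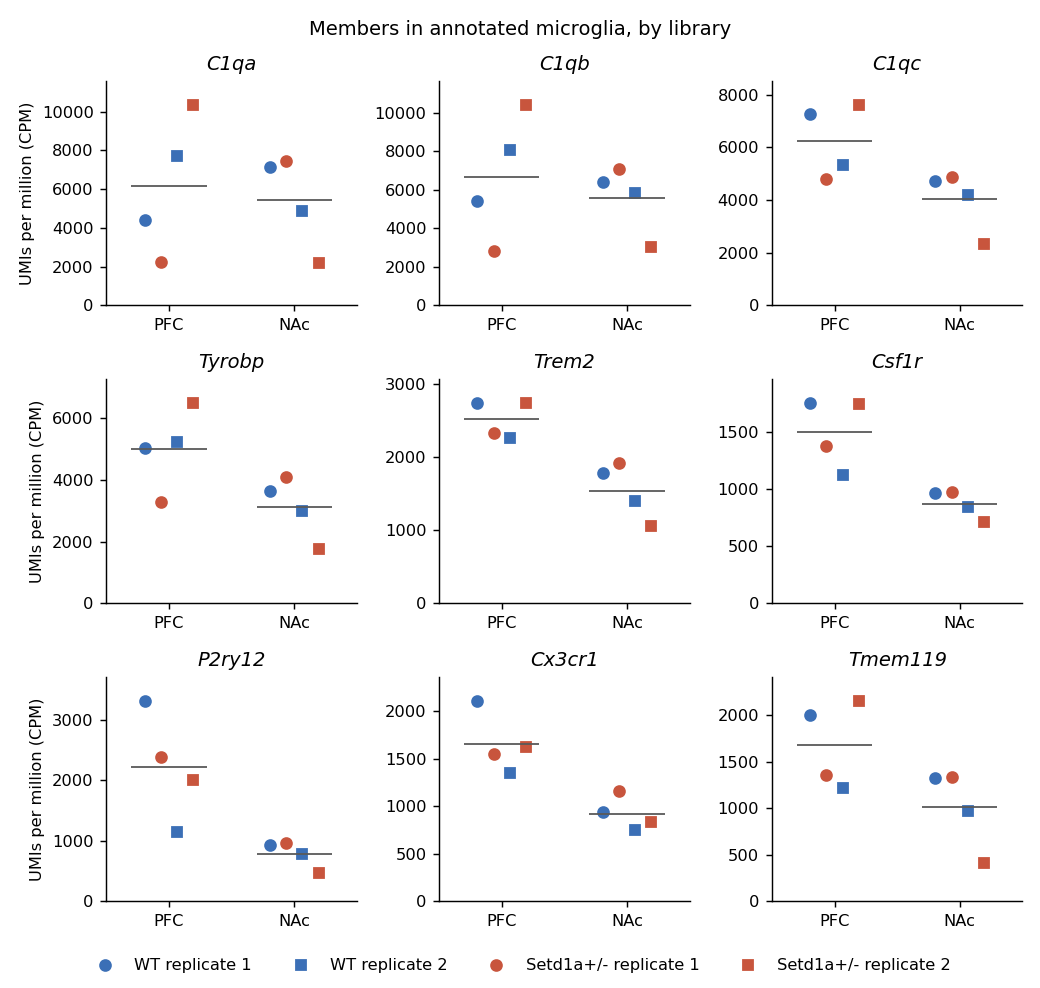
CPM of each member (UMIs of the gene per 1000000 UMIs of the annotated microglia of a library) in the PFC and the striatum (NAc). Each point is a library, colors are genotypes, shapes are replicates, and gray lines are the means of the 4 libraries of a tissue. Striatal Setd1a+/- replicate 2 (24 cells) is the lowest point of its tissue for every member except Cx3cr1.

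Nearly every annotated microglia cell held RNA of the set. The annotation was made from these same counts, so the levels by cell type are descriptions and not tests. All 3 C1q genes were detected in 93.5% to 100% of the microglia of a library, and all 9 members in 65.0% to 89.8% in the PFC and 37.5% to 68.2% in the striatum. Averaged over members and libraries, a member was detected in 96.9% of PFC and 89.8% of striatal microglia, and in 87.1% and 73.5% after each cell was thinned to 1000 UMIs. In excitatory neurons of the PFC, a type not known for these genes, 0.577% (Csf1r) to 4.04% (C1qc) of cells held a UMI at a median of 6643 UMIs per cell.

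Outside microglia the set was below the level of free RNA. Empty droplets, barcodes outside the annotation with 1 to 100 UMIs, held 755 to 1354 CPM of the 9 members together in the PFC and 578 to 1168 in the striatum, and 22140 to 45129 and 12848 to 29856 CPM were found in microglia. The sum was below that of the library's empty droplets in all 64 combinations of another cell type and a library, at 0 to 0.784 times their level. Of 576 values of single members, 574 were below the empty droplets, and the exceptions were Cx3cr1 in PFC oligodendrocytes of WT replicate 2 (53.0 against 35.3 CPM) and in newly formed oligodendrocytes of striatal Setd1a+/- replicate 1 (43.7 against 41.2 CPM, from 8 UMIs in 1 of 53 cells). Free RNA is only a part of the UMIs of a cell, so the level in empty droplets is an upper limit for what it adds, and low expression of a member in these types was not tested. The share of that level differed between types, such as 0.0204 to 0.0586 in PFC excitatory neurons and 0.165 to 0.784 in PFC oligodendrocytes. The lowest value, 0, was in striatal newly formed oligodendrocytes.

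The order of the other types below microglia was loose. In the PFC, oligodendrocytes had the highest sum (median 314 CPM, 224 to 632), followed by endothelial cells (145, 41.6 to 376), astrocytes (39.9, 25.6 to 88.0), interneurons (36.6, 16.6 to 374), oligodendrocyte precursors (33.4, 17.8 to 112), excitatory neurons (27.7, 24.2 to 47.2) and newly formed oligodendrocytes (21.6, 8.96 to 81.6). In the striatum, endothelial cells led (127, 61.8 to 152), D2 medium spiny neurons were lowest (41.2, 24.4 to 51.6), and the medians of the 7 types between them were 41.8 to 54.2 CPM. The ranges of neighbors in this order overlapped in both tissues. Few cells carried the PFC oligodendrocyte level: 27 of 1694 (1.59%, Wilson 95% interval 1.10% to 2.31%) held at least 10 member UMIs, and they held 89.4% of the type's member UMIs. Likewise 10 of 1562 PFC endothelial cells held 54.8% and 4 of 298 PFC interneurons 76.1% of the member UMIs of their type. In the striatum 12 of 1998 endothelial cells held 39.9%, 3 of 821 interneurons 54.7% and 1 of 165 newly formed oligodendrocytes 75.6%, and whether such barcodes hold 2 cells was not tested.

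**Figure D2:**
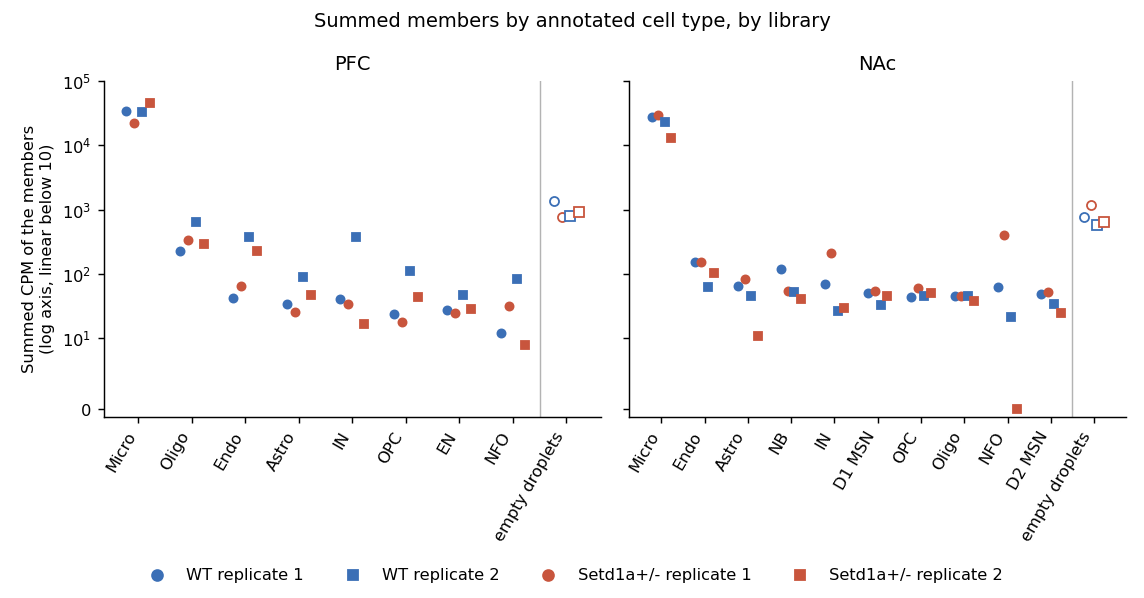
Summed CPM of the 9 members in each annotated cell type and in empty droplets (open symbols), by library, on a log axis that is linear below 10. Microglia are at 12848 to 45129 CPM, and all other types are below the empty droplets of their own library. Oligo stands for oligodendrocytes, Endo for endothelial cells, Astro for astrocytes, IN for interneurons, OPC for oligodendrocyte precursors, EN for excitatory neurons, NFO for newly formed oligodendrocytes, NB for neuroblasts and MSN for medium spiny neurons.

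Over the 72 sums of a cell type in a library, the genes whose pattern was most like that of a member were mostly other members and other myeloid genes. The measure was Pearson's r of log2(CPM + 1), given as a description, since the sums share libraries and depth and mainly separate microglia from the rest. Fcgr3, an activating receptor for antibodies, was among the 5 closest genes of 8 members (r 0.918 to 0.958), all but P2ry12. P2ry12 was closest to Fcrls (0.938), Fgd2, Ctss, Tnfaip8l2 and Siglech, with no member among its 5. C1qa and Tyrobp were each other's closest gene (0.958).

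The proportions of the C1q chains differed between libraries. C1qc gave 42.5% and 48.7% of the C1q UMIs of annotated microglia in the PFC replicate 1 libraries (WT and Setd1a+/-) and 25.3% and 26.8% in the replicate 2 libraries, with C1qa at 25.9% and 22.5% against 36.5% and 36.5%. The ratio of C1qa to C1qc was 0.463 to 0.610 in PFC replicate 1, 1.36 to 1.44 in PFC replicate 2, 1.51 to 1.53 in striatal replicate 1 and 0.942 to 1.17 in striatal replicate 2. In the PFC the libraries of a replicate thus lay closer to each other, across genotypes, than to those of the other replicate, and the ranges of the striatal replicates did not overlap, while PFC replicate 2 lay near striatal replicate 1.

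The free RNA kept the order of the PFC replicates and of the striatal replicates, but not always the same ratios. In empty droplets the ratio of C1qa to C1qc was 0.389 to 0.699 in PFC replicate 1, 1.09 to 1.16 in PFC replicate 2, 1.51 to 1.52 in striatal replicate 1 and 0.646 to 0.866 in striatal replicate 2. In the other annotated cell types together it was 0.573 to 0.653, 1.08 to 1.21, 1.46 to 1.53 and 0.463 to 0.845 in the same order. A fit with a term for the replicate was added after these proportions had been seen. By edgeR's quasi-likelihood test with Benjamini-Hochberg adjustment over all genes, C1qa was 1.62 ± 0.52 (log2 difference ± SE) higher in PFC replicate 2 than in replicate 1 (adjusted p = 0.256) and C1qb 1.34 ± 0.51 higher (adjusted p = 0.433). The estimates for C1qc and P2ry12 were 0.23 and -0.77, and no member was called where 0.644% of 2641 genes were. In the striatum 0.373% of 3753 genes and no member were called, with C1qa at -1.21 ± 0.57 (adjusted p = 0.966). When barcodes outside the annotation with microglia markers were added (described next), 0.101% of 7896 PFC genes and no member were called, and 3.13% of 7541 striatal genes (1.62% lower), among them C1qa at -0.72 (adjusted p = 0.0033) and Tmem119 at -0.64 (adjusted p = 0.0171, edgeR). Markers of other cells moved in that striatal fit too. Of those tested, 5 of 6 oligodendrocyte lineage, 2 of 5 astrocyte and 1 of 6 vascular markers were called lower, and 3 of 8 neuron markers higher. What differed between the replicates was not tested.

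**Figure D3:**
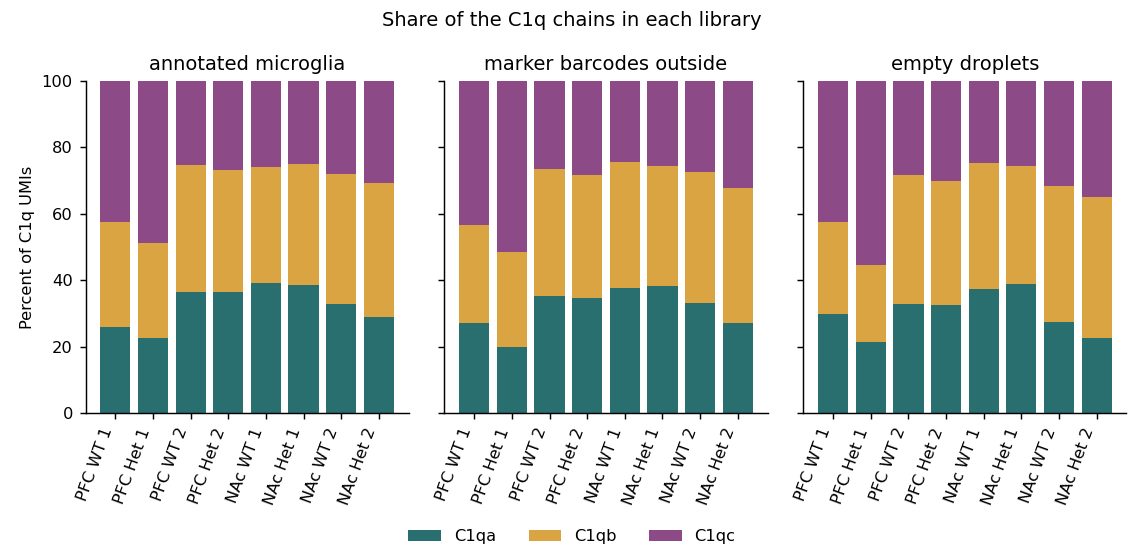
Percent of all C1q UMIs given by C1qa, C1qb and C1qc in each library, in annotated microglia, in barcodes outside the annotation that carry microglia markers, and in empty droplets. Het is Setd1a+/-, and the number is the replicate. In PFC replicate 1 the C1qc share is 42.5% and 48.7% in annotated microglia, against 25.1% to 30.8% in the other 6 libraries.

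More barcodes with the expression of microglia were outside the annotation than within it. Outside the annotation, 5629 barcodes with over 500 UMIs held at least 10 UMIs of 18 microglia markers other than the members, among them Ctss and Fcer1g, a rule that 747 of 753 annotated microglia and 59 of 22934 other annotated cells also met. Of the 5629, 5393 (95.8%) had under 800 detected genes and 564 had over 10% mitochondrial UMIs. The 5065 with at most 10% mitochondrial UMIs amounted to 2.45 to 21.5 per annotated microglia cell of a library, and are called marker barcodes here. Among annotated microglia, 345 of 753 (45.8%) had under 900 genes, so that many lay just above the limit of 800.

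The members were high in the marker barcodes. They did not enter the choice, but some of the microglia markers that did, such as Ctss and Siglech, were among the genes most like them. The levels of the members are thus a description and not a test of what these barcodes are. The sum of the members was 26801 to 46536 CPM in the PFC, near the 22140 to 45129 of annotated microglia. In the striatum it was 42674 to 55292 CPM against 12848 to 29856. C1qa was at 14065 and 11003 CPM in WT and 13392 and 7504 in Setd1a+/- striatal marker barcodes, each above the annotated microglia of the same library. P2ry12 was at 2045 and 2103, and 1875 and 1820, there. Marker barcodes held 478 to 803 CPM of the 10 neuron markers together in the striatum, where annotated microglia held 3958 to 7268, and 675 to 2722 in the PFC, where annotated microglia held 195 to 1157. Striatal marker barcodes also held fewer vascular markers (123 to 156 CPM against 627 to 2397). Oligodendrocyte lineage markers went the other way there, at 764 to 2964 CPM against 236 to 1558 in annotated microglia.

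The tissue comparison asked whether the set differed between striatal and PFC microglia over the 8 libraries. By the methods, striatal tissue was digested with papain for longer than PFC tissue, so tissue and digestion time cannot be told apart. In annotated microglia 4 members were lower in the striatum: P2ry12 by a log2 difference of -1.62 ± 0.34 (adjusted p = 0.0055), Cx3cr1 by -0.99 ± 0.25 (adjusted p = 0.0149), Csf1r by -0.92 ± 0.25 (adjusted p = 0.0204) and Trem2 by -0.84 ± 0.26 (adjusted p = 0.0323, all edgeR). All genes served as background, and 22.2% of 3481 were called (8.79% lower, 13.4% higher) at an FDR under 0.05 and a fold change (FC) above 1.5. C1qa (-0.35 ± 0.51), C1qb (-0.42 ± 0.41), C1qc (-0.78 ± 0.30), Tyrobp (-0.83 ± 0.32) and Tmem119 (-0.87 ± 0.36) did not pass. All 9 estimates were below 0, with a median of -0.84 against -0.03 over all genes tested.

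Some genes around the members in their pathways were called lower as well, where 8.79% of all genes were. In TREM2-TYROBP and CSF1R signaling, 5 of 12 tested genes fell and none rose, namely the lectin Cd33 (-1.28), the lipid phosphatase Inpp5d (-1.13), the kinase Lyn (-1.01), the TREM2 sheddase Adam10 (-0.97) and the inhibitory receptor Sirpa (-0.93). Of 6 tested complement genes other than C1q, 2 fell, among them Itgam, a chain of complement receptor 3 (-1.42), and 4 did not pass. Of 17 tested microglia markers other than the members, 12 fell and none rose, with Gpr34 (-1.47), Slc2a5 (-1.44) and Siglech (-1.29) among them.

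Markers of other cells moved with the tissue. All 6 tested neuron markers were higher in striatal microglia, with Ppp1r1b, the DARPP-32 gene of medium spiny neurons, at 7.22 and Snap25 at 2.80 on the log2 scale, and the neuronal ligand Cx3cl1 was at 4.05. At least 3 UMIs of the neuron markers were held by 125 of 271 striatal (46.1%) and 35 of 482 PFC microglia (7.26%). At least 2 UMIs of macrophage markers (described below) were held by 19 striatal and 2 PFC microglia. Without these macrophage-marker cells the tissue fit called 818 of 3429 genes. Of the astrocyte markers 4 of 5 tested fell, with Gja1 at -3.27, and F13a1, a macrophage gene, rose (6.57). Of the dissociation response genes Junb (1.89) and Egr1 (1.70) rose, and 10 of 12 did not pass. The median of the 12 was 0.79 against -0.03 over all genes, with a range of -0.54 to 1.89.

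The 4 calls were lost in both other sets of cells, which were added after seeing these markers. Without the cells that held at least 3 neuron-marker UMIs, which left 6 microglia in striatal Setd1a+/- replicate 2 and 35 to 60 in the other striatal libraries, 6 of 1717 genes (0.349%) and no member were called, and P2ry12 was at -1.04 ± 0.29 (adjusted p = 0.126), Cx3cr1 at -0.59, Csf1r at -0.52 and Trem2 at -0.30. With the marker barcodes added to the annotated microglia, 54 of 8159 genes (0.662%) and no member were called. P2ry12 was then at -0.52 ± 0.23 (adjusted p = 0.36), Trem2 at 0.10, and C1qa and C1qb, both at 0.70, had turned from lower to higher. None of the signaling, complement or other microglia genes was called in either set. The marker barcodes of both tissues were chosen by at least 10 UMIs of these other microglia markers. That set therefore cannot decide whether these markers differ between the tissues, and some of them were among the genes most like the members. With the marker barcodes, 2 of 9 tested neuron markers and 2 of 7 oligodendrocyte lineage markers were called higher in the striatum. No dissociation response gene was called in either set. The 11 tested without the neuron-marker cells were at 0.28 to 2.77, with a median of 1.78 against -0.04 over all genes. With the marker barcodes the 13 tested were at 0.0 to 0.95, with a median of 0.32 against -0.02. By edgeR within replicates of annotated microglia, 648 of 3457 genes (458 higher) were called in replicate 1 alone and 322 of 3074 in replicate 2 alone. There C1qa pointed in opposite directions, at 1.16 in replicate 1 (adjusted p = 0.0469) and -1.65 in replicate 2 (adjusted p = 0.092). P2ry12 was at -1.62 (adjusted p = 0.00142) and -1.50 (adjusted p = 0.0774). Leaving out 1 library at a time, 365 (of 3793) to 1037 (of 4254) genes were called, and P2ry12 stayed called in all 8 fits. Trem2 was lost without striatal WT replicate 1 (edgeR, adjusted p = 0.0862) or 2 (0.138), PFC WT replicate 1 (0.125) or PFC Setd1a+/- replicate 2 (0.114). Csf1r was lost in the same 4 fits and Cx3cr1 in the first 3. Trem2 was also lost in edgeR with scaling by library size only (-0.70, adjusted p = 0.0527) and with no filter on low counts (-0.95, adjusted p = 0.0587). Without the filter Tmem119 was called (-0.97, adjusted p = 0.0465). Cx3cr1, Csf1r and Trem2 were lost without the 10% of cells with most UMIs (adjusted p = 0.0594, 0.0798 and 0.137). These settings called 711 of 3481, 1259 of 15446 and 187 of 2761 genes, in that order.

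**Figure D4:**
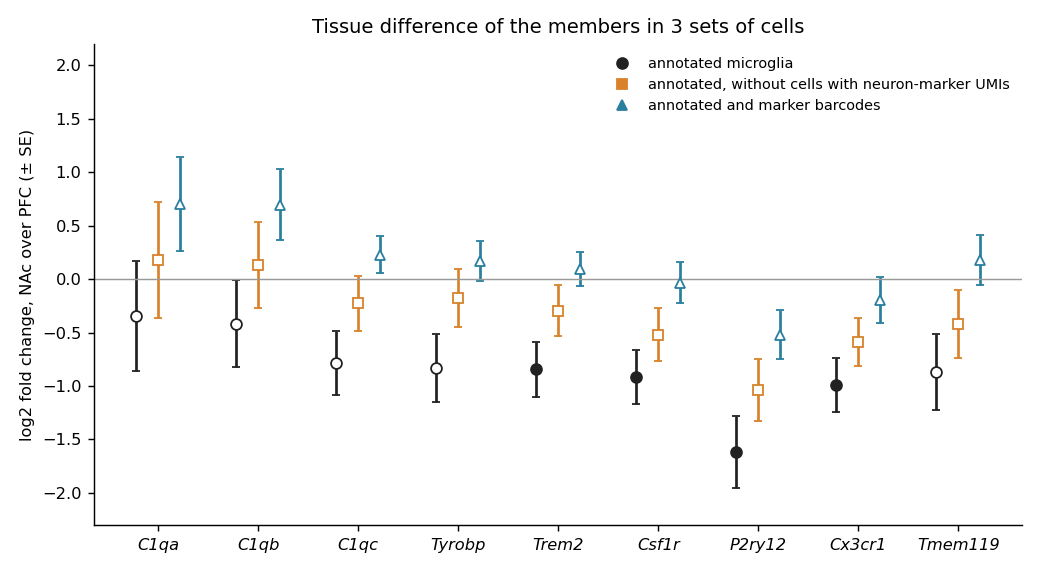
Log2 fold change of the members in striatal (NAc) over PFC microglia by edgeR, with bars of 1 SE, in annotated microglia, in annotated microglia without cells that held at least 3 neuron-marker UMIs, and in annotated microglia with the marker barcodes. Filled symbols passed an FDR under 0.05 and an FC above 1.5. P2ry12 is the lowest member in all 3 sets, at -1.62, -1.04 and -0.52, and only annotated microglia have filled symbols.

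The genotype comparison asked whether Setd1a heterozygosity changed the set in microglia. No gene was called in the PFC (0% of 2641 genes, FDR under 0.05 and FC above 1.5), where 15 had an unadjusted p under 0.05, and none in the striatum (0% of 3753 genes, FC above 2), where 55 did. DESeq2 also called 0 in both, with 3 and 5 genes under the unadjusted limit. The members' log2 differences (Setd1a+/- minus WT) were -0.11 for Cx3cr1 to 0.16 for Tmem119 in the PFC, with SEs of 0.33 to 0.77, and -0.30 for Tmem119 to 0.29 for Cx3cr1 in the striatum, with SEs of 0.39 to 0.58 (adjusted p = 0.9997 for each in edgeR). For C1qa the difference was 0.10 ± 0.77 in the PFC and -0.25 ± 0.58 in the striatum, and changes within a few SEs of 0 were not detectable with these libraries. These fits had no replicate block, so the SEs include the spread between replicates. Neither the fit over both tissues (0% of 3481 genes) nor the test of the difference between the tissues (0% of 4108) called a gene, with 62 and 34 under an unadjusted p of 0.05 (0 called by DESeq2, with 32 and 14 under that limit), and the members were at -0.14 to 0.06 and -0.43 to 0.43.

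The PFC pairs pointed in opposite directions. In replicate 1 all 9 members were lower in Setd1a+/- than in WT microglia, by log2 ratios of -0.999 (C1qa) to -0.23 (Trem2), and in replicate 2 all 9 were higher, by 0.26 (Cx3cr1) to 0.83 (Tmem119). In the striatum the replicate 1 ratios were 0.00 to 0.30, and those of replicate 2 were -1.22 (Tmem119) to 0.16 (Cx3cr1). Without striatal Setd1a+/- replicate 1, the 24 cells of replicate 2 were the only Setd1a+/- microglia, and the spread came from the WT libraries alone. In that fit C1qa was at -1.55, Tmem119 at -1.55, C1qb at -1.10 and C1qc at -1.03, given as effect sizes only. No member was called in the other fits without a library, with the replicate block, or with the marker barcodes.

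The share of microglia among annotated cells was 10.1% and 2.99% in WT and 2.10% and 6.03% in Setd1a+/- PFC libraries, and 1.90% and 1.88%, and 2.32% and 0.962%, in the striatum. The difference was -2.47 percentage points in the PFC (exact permutation test, two-sided, p = 0.667) and -0.252 in the striatum (p = 1). With 2 libraries against 2 that test cannot go below 0.333. The share depends on the limit of 800 genes, with the marker barcodes of each library outside it.

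A few cells annotated as microglia carried markers of perivascular macrophages, which are also resident macrophages of the brain. Of 753 microglia, 21 held at least 2 UMIs of 8 such markers, 19 of them in the 3 striatal libraries with at least 5 (7 in WT replicate 1, 5 in WT replicate 2 and 7 in Setd1a+/- replicate 1). Mrc1 and Pf4, which took part in the choice, were at 808 and 4778 CPM in these cells and at 3.07 and 1.53 CPM in the other 228 microglia of the libraries. The members took no part in the choice and split into 2 groups.

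The resting-state markers and Trem2 were lower in these cells. Tmem119 had 0 to 3 UMIs per library in the 19 cells (3 in all, 69.2 CPM) against 1038 to 1430.3 CPM in the other microglia, a ratio of 0.0537 with a counting interval of 0.0111 to 0.158. P2ry12, also with 3 UMIs, had a ratio of 0.0729 (0.0150 to 0.214), Cx3cr1, with 6, of 0.139 (0.0507 to 0.303), and Trem2, with 30, of 0.393 (0.264 to 0.564). With the library as a block, edgeR called these 4 members lower, at log2 differences of -4.35 ± 0.51 (adjusted p = 3.69e-15), -3.90 ± 0.56 (adjusted p = 4.17e-10), -3.01 ± 0.48 (adjusted p = 1.43e-08) and -1.53 ± 0.29 (adjusted p = 4.81e-06), where 8.85% of 2090 genes were called and 4.74% were called lower.

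The C1q genes and Tyrobp did not pass the test between the 2 groups of cells. The log2 differences were 0.08 ± 0.19 for C1qa, -0.13 ± 0.19 for C1qb, 0.06 ± 0.19 for C1qc and -0.09 ± 0.20 for Tyrobp, and Csf1r was at -0.51 ± 0.32 (adjusted p = 0.396). None of these 5 was called, which does not show that they are equal. Over the pooled counts the ratio of CPM was 1.25 for C1qa (counting interval 1.118 to 1.40), 1.02 for C1qb (0.901 to 1.15), 1.22 for C1qc (1.07 to 1.40), 1.05 for Tyrobp (0.891 to 1.23) and 0.787 for Csf1r (0.533 to 1.122). The libraries disagreed: C1qa and C1qc were higher in the macrophage-marker cells of WT replicate 1 and Setd1a+/- replicate 1. In WT replicate 2 both were lower, at 3744 against 4971 CPM and 3179 against 4244 CPM. Among other complement genes, the receptor genes C5ar1 and C3ar1 were higher (both 2.24) and Itgam was lower. Apoe, a lipid carrier and TREM2 ligand, was at 34486 CPM against 690 and higher by 5.49, and 8 of 15 tested microglia markers other than the members fell, with Selplg at 139 against 1392 CPM, and 1, the lysosomal Cd68, rose (1.14). Markers of other cells moved with the split too: 3 of 6 tested neuron markers, 2 of 6 vascular markers and 1 of 2 oligodendrocyte markers were lower, and 3 of 12 dissociation response genes, Ccl4 (3.01), Rgs1 (2.90) and Ccl3 (2.79), were higher. Their part in the result was not tested. The calls depended on the libraries used, and the cause was not tested. Without striatal Setd1a+/- replicate 1 or WT replicate 2, 4 of 1834 and 6 of 1714 genes were called in place of 185 of 2090, none of them a member. In these fits the estimates of P2ry12 (-3.24 and -3.96), Tmem119 (-3.69 and -3.87), Cx3cr1 (-2.84 and -2.52) and Trem2 (-1.45 and -1.20) stayed below 0. Without WT replicate 1, 100 of 1720 genes were called. DESeq2 did not call Trem2. With no filter on low counts edgeR also called C1qa (-0.65), C1qb (-0.86), Tyrobp (-0.82) and Csf1r (-1.23) lower. That fit called 209 of 14213 genes, 157 of them lower. Its median over all genes was -1.68, against -0.24 with the filter, so these members lay above its median.

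**Figure D5:**
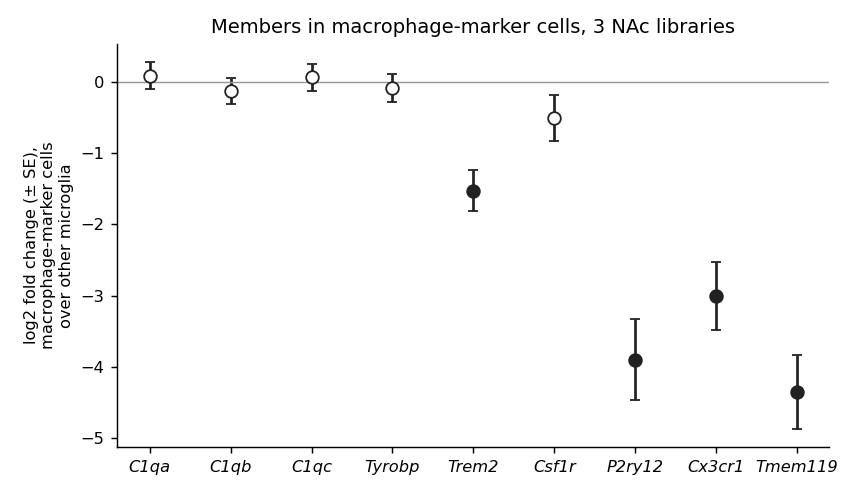
Log2 fold change of the members in the 19 macrophage-marker cells over the other 228 microglia of the same 3 striatal (NAc) libraries, by edgeR with the library as a block, with bars of 1 SE. Filled symbols passed an FDR under 0.05 and an FC above 1.5. Tmem119, P2ry12, Cx3cr1 and Trem2 are filled, at -4.35 to -1.53, and the C1q genes and Tyrobp lie between -0.13 and 0.08.

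Levels of 4 ligands of the receptors are set beside those of empty droplets. Cx3cl1, the ligand of CX3CR1, had means over libraries of 281 CPM in PFC excitatory neurons (265 to 294), above the 164 to 219 of the PFC empty droplets. It was at 355 and 382 in D1 and D2 medium spiny neurons, where the striatal empty droplets held 386 to 442, so that the ranges overlapped (319 to 394 and 319 to 442 in the neurons). Annotated microglia held 8.6 CPM in the PFC and 152 in the striatum, the set with the neuron-marker UMIs. Of the CSF1R ligands, Il34 was at 81.1 CPM in PFC endothelial cells (70.2 to 96.9), above the 28.3 to 61.0 of empty droplets, while excitatory neurons (65.2, 48.3 to 87.4) overlapped them, as did D1 and D2 neurons (77.3 and 78.8) and endothelial cells (88.0) in the striatum, where empty droplets held 62.9 to 79.8. Csf1 was at 25.4 and 21.2 CPM in PFC and striatal endothelial cells and 23.9 and 22.7 in oligodendrocytes, above the 3.87 to 6.89 and 1.52 to 3.86 of empty droplets. Apoe, a ligand of TREM2, was at 4736 and 8618 CPM in astrocytes and 784 and 2164 in microglia, with 287 to 499 and 238 to 607 in empty droplets, and its range in microglia (185 to 2396 and 224 to 3570) overlapped theirs. In the striatal libraries tested for macrophage-marker cells, these cells held 34486 CPM of Apoe and the other annotated microglia 690.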

How the data were processed

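Single-cell RNA sequencing libraries (10x Chromium) were read as the deposited counts, raw UMIs per gene and barcode that the authors made with Cell Ranger 3.0.2 on mm10 and did not normalize. All droplets are included. The annotation is the authors' (Seurat 3.2.0). Its columns and the barcode and gene lists are labels, and other deposited tables were not used. No doublet caller was run, and doublet removal by the authors is not given in the sources used here.

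UMIs were summed over the microglia of each library. Sums were tested with edgeR 4.0.16 (quasi-likelihood, robust, TMM, filterByExpr at minimum count 10, two-sided p adjusted by Benjamini-Hochberg over all genes) in R 4.3.3, and with DESeq2 1.42.0 as an alternative. The SE is the log2 difference over the square root of F. Calls needed an FDR under 0.05 with a fold change over 1.5 (over 2 for genotype in the striatum). The study used these thresholds for WT against Setd1a+/- within a cell type of a tissue, with a test over single cells (DEsingle). For all other comparisons the fold change of 1.5 was chosen here. Fits had no replicate block, except that macrophage-marker cells were compared with the library as a block. By the methods, a biological replicate holds a WT and a Setd1a+/- library, so numbers pair libraries, and deviations of same-numbered libraries correlated across genes at 0.114 (PFC) and 0.123 (striatum). Simulated counts were also run through the fits of genotype within each tissue and of tissue, and their outcome is not reported here. Means, Wilson intervals and figures were made in Python 3.11.15 (pandas 2.3.3, scipy 1.17.1). Intervals cover counting error only. Named genes were the members, the called genes of each list (at most 5 per list and fit), the highest genes of a list, and the 5 genes most like a member. The members and lists were chosen with earlier results of these data known. Of 31053 gene IDs, 30934 were found in GENCODE vM21. Results for some genes of the lists are not reported here.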

Additional observations from a re-analysis of the deposited data

Results flagged for a closer look

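Data outside the annotation held a microglial signal. With over 500 UMIs and at least 10 UMIs of microglia markers other than the members, 5629 barcodes carried no annotation, against 753 annotated microglia, and 95.8% of them had fewer genes than the annotation required. No group had enough libraries for a test of single outlying libraries, and no member passed the test of a difference in genotype effect between the tissues.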

How the results depend on the processing

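Numbers of called genes depended on the cells and libraries used, and the cause was not tested. The tissue comparison gave 772 of 3481 genes in annotated microglia, 1259 of 15446 with no filter on low counts and 187 of 2761 without the 10% of cells with most UMIs. It gave 322 of 3074 in replicate 2 alone and 365 (of 3793) to 1037 (of 4254) without 1 library. Without cells with neuron-marker UMIs it gave 6 of 1717, with marker barcodes 54 of 8159, and with these and the replicate block 107 of 8834. Trem2 turned to 0.10 in both fits with marker barcodes, and C1qa to 1.16 in replicate 1 alone. Genotype called 0 genes, and with no filter 2 in the PFC, 4 in the striatum and 1 for the difference between tissues. Without 1 library it called 0 to 5 in the PFC and 0 to 108 in the striatum. The replicate block called 1 gene in the striatum, 14 with marker barcodes, and changed no other genotype call. Macrophage-marker cells gave 185 genes, 71 with DESeq2 and 4 to 100 without 1 library. With no filter C1qa was at -0.65 and called, where the median over all genes was -1.68. The replicate term gave 17 genes in the PFC and 7 with DESeq2, 3 with library size only, 8 with marker barcodes, 2 without macrophage-marker cells, 5 without cells with neuron-marker UMIs and 0 without the 10% of cells with most UMIs (117 at an unadjusted p under 0.05). In the striatum it gave 14, and 3, 236, 9 and 5 with DESeq2, with marker barcodes, without macrophage-marker cells and without the top cells. With marker barcodes C1qa (-0.72) and Tmem119 (-0.64) were among the 236. The fits of the replicate term without 1 library were not run, since no residual degrees of freedom were left. With at most 10% mitochondrial UMIs, the summed members in barcodes outside the annotation averaged 3881, 7831 and 10649 CPM in the PFC at 100 to 500, 500 to 1000 and over 1000 UMIs, against 1355, 4723 and 7108, and 1716 and 7253 in the first 2 ranges of the striatum, against 768 and 4380. Detection averaged 87.1% and 73.5% after thinning. Over the alternatives, 134 of 189 member values of the tissue comparison kept direction and call, 33 lost the call, 4 gained one, 3 called in either fit changed sign (given above), and 15 called in neither changed sign.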
